A study of Homo sapiens with 24 samples.

Results

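PC9 cells, which derive from human non-small cell lung cancer, were kept for 24 h in RPMI 1640 medium without asparagine, with either 200 nM ISRIB or 0.004% DMSO as vehicle. The results below concern these 6 of the 24 libraries of the series, chosen by their labels: 3 with ISRIB and 3 with vehicle, described as biological triplicates. Total RNA was sequenced. Both groups had grown for 2 days in full medium, were rinsed and then received the asparagine-free medium together with drug or vehicle, so the starvation is common to both and the drug is what differs. Other comparisons of ISRIB with vehicle were used only to set the result in place: the same treatment for 24 h in medium with asparagine (6 libraries), and without asparagine for 6 h (6 libraries). A single cell line was used, and the labels give the serum content of the routine growth medium only.

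Cells that run short of an amino acid accumulate uncharged tRNA, which activates the kinase GCN2. GCN2 phosphorylates the initiation factor eIF2, phosphorylated eIF2 blocks its own exchange factor eIF2B, and general translation falls while the transcription factor ATF4 is translated more. ATF4 then raises genes of amino acid supply, among them ASNS, the enzyme that makes asparagine from aspartate and glutamine. This sequence of events is the integrated stress response, and ISRIB is a small molecule that holds eIF2B in its active assembly and so blunts the response. What each gene is known to do is given below as background.

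ATF4 and its partners bind a composite element whose letters were searched here as TGATGNAAN on both strands, from 250 bases before to 50 bases after the start of each gene (the first RefSeq promoter listed for it, GRCh38.p14). A match stood in 5 of the 26 ATF4 and CHOP targets that the promoters cover (19.2%), against 1.62% of the 10036 promoters of tested genes. Windows with 25 bases on each side of the match (capitals) are shown for 3 of these targets, which are followed below: ASNS, called lower with ISRIB at 24 h, and ATF3 and CHAC1, for which no change was called. They lie at chr7:97872443-97872501 (ASNS, minus strand of the genome), chr1:212565191-212565249 (ATF3, plus strand) and chr15:40953236-40953294 (CHAC1, plus strand), each 5′ to 3′ along its gene, and the match of CHAC1 reads on the opposite strand.
ASNS: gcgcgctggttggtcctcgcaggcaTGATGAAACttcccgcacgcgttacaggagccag
ATF3: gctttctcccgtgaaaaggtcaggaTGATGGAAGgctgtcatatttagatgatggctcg
CHAC1: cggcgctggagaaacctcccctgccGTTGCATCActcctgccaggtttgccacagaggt
Relative to the RefSeq start that sets the window the match begins at base -68 in ASNS, -191 in ATF3 and -210 in CHAC1. The GENCODE 29 gene model of ASNS, given below, begins upstream of this match. Among all genes the letters did not separate the groups described below: they were in 1.53% of the promoters of genes that rose and 1.54% of those of genes that fell. A match is a description of the letters and no evidence of binding.

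The 6 libraries held 16737384 to 23271470 reads assigned to genes, and 17409 genes were tested over all 24 libraries. The 7 epithelial lung cancer markers were all present, from 318 to 3800 CPM (counts scaled to the library total by TMM). The markers of other cell types stayed low, and their part in the results was not tested. In such bulk samples fewer cells of a type and less RNA per cell cannot be told apart. The summed level of 6 fibroblast markers was 9.73 to 14.3 CPM with ISRIB and 4.58 to 7.26 with vehicle, carried by COL1A1, with DCN and LUM at 0. That of 4 endothelial markers was 4.24 to 5.46 against 7.38 to 10.1 CPM with KDR at 0, and that of 6 leukocyte markers 1.43 to 1.98 against 1.47 to 2.27 CPM with CD3E at 0. Mitochondrially encoded RNA took 6.19%, 7.18% and 6.66% of the counts with ISRIB and 8.63%, 7.30% and 7.45% with vehicle, without overlap. Libraries also differed in how strongly their counts went with transcript GC content. The slope per 10 points of GC was 0.22, -0.05 and 0.16 on the log2 scale in the ISRIB libraries and -0.18, -0.01 and -0.18 in the vehicle libraries (replicates 1, 2 and 3), so that ISRIB replicate 2 lay below vehicle replicate 2. The part of GC content in the results was not tested, and counts and values after removal of each library's GC trend are given beside the results they move.

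ISRIB changed a large part of the transcriptome of the starved cells at 24 h. Of 17409 genes 1762 rose (10.1% of those tested) and 2016 fell (11.6%) at an adjusted p below 0.05 (edgeR quasi-likelihood test, p-values adjusted after Benjamini and Hochberg). At least 2-fold changes numbered 226 up and 232 down. The ISRIB and vehicle libraries did not overlap for 1741 of the risen and 2002 of the fallen genes, a separation that a call nearly requires and that 7485 of all 17409 genes tested (43%) showed. The median change of the called genes was 0.58 and -0.55 on the log2 scale. The counts moved with single libraries. Risen genes numbered 951 without vehicle replicate 1, 952 without vehicle replicate 3, 894 without ISRIB replicate 1 and 970 without ISRIB replicate 3, and fallen genes 1349, 1265, 1179 and 1311. Without vehicle replicate 2, 1536 rose and 1859 fell, and without ISRIB replicate 2, 1694 rose and 2047 fell. After GC correction 2625 rose and 2666 fell, and 1564 and 1800 of these were among the genes called without it. Counts of list members given below for such a setting are to be read beside the totals of that setting, since both move together with the number of calls.

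The same drug in the presence of asparagine at 24 h left 0 genes past the threshold in either direction (0% of 17409 up and 0% down, edgeR). Unadjusted p was below 0.05 for 248 genes, fewer than the share of 0.05 that tests without any effect would give. The test was thus cautious there, and 0 calls do not show that ISRIB had no effect with asparagine. The 1762 genes that rose without asparagine had a median change of -0.05 there, and the 2016 that fell one of 0.06. The difference between the media was tested gene by gene as an interaction. The ISRIB effect was higher without asparagine for 604 genes (3.47%) and lower for 973 (5.59%). Of these, 590 and 964 were also called in the same direction without asparagine. Leaving out any 1 of 7 libraries (vehicle replicate 2 or 3 or ISRIB replicate 3 with asparagine, and replicates 1 and 3 of both groups without it) brought the first count to between 283 and 321 and the second to between 523 and 602, and leaving out ISRIB replicate 1 with asparagine raised the first to 948. ISRIB replicate 3 with asparagine had the most negative GC slope of the series (-0.40). Without it and the other 2 libraries of most negative slope the counts were 870 and 1248.

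**Figure D1:**
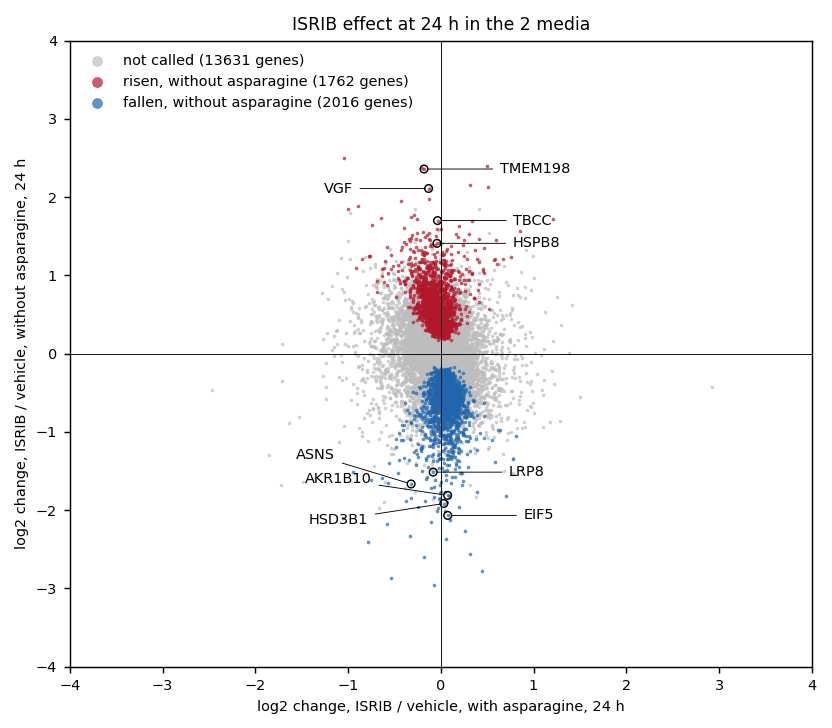
Each point is a gene, placed by its log2 change between ISRIB and vehicle at 24 h with asparagine (horizontal axis) and without asparagine (vertical axis); red and blue mark the 1762 risen and 2016 fallen genes without asparagine. The cloud is stretched vertically, and the labelled genes lie near 0 on the horizontal axis except ASNS at -0.32.

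At 6 h without asparagine 96 genes rose (0.551%) and 285 fell (1.64%) with ISRIB. Of the genes that rose at 24 h, 41 had already risen at 6 h and 19 had fallen, and of those that fell at 24 h, 87 had fallen and 6 had risen. The median change at 6 h of the 24 h genes was 0.02 for the risen and -0.02 for the fallen. Tested directly, the ISRIB effect was higher at 24 h than at 6 h for 584 genes (3.35%) and lower for 738 (4.24%). Those called also at 24 h in the same direction numbered 409 and 671. Leaving out any 1 of 7 libraries (replicates 1 and 3 of both 24 h groups, vehicle replicates 1 and 2 and ISRIB replicate 3 at 6 h) brought these counts to between 295 and 347 and between 373 and 415.

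The largest falls and rises were taken from genes whose groups did not overlap and whose mean in these libraries reached 5 CPM. EIF5 fell most. It encodes the initiation factor that promotes GTP hydrolysis by eIF2, and it lies on chromosome 14 from 103333544 to 103345025 (GENCODE 29, GRCh38). Its levels were 1122, 1129 and 1142 CPM with vehicle and 250, 310.4 and 249 CPM with ISRIB, a log2 change of -2.07 ± 0.17 (SE; edgeR adjusted p = 4.5e-08). With asparagine the levels were 1175, 1195 and 1049 CPM with vehicle and 1027, 1213 and 1362 with ISRIB, all above the starved ISRIB libraries. At 6 h without asparagine EIF5 was at 533, 532 and 802 CPM with vehicle and 400, 462 and 644 with ISRIB, which were not called different. The interaction was -2.14 ± 0.23. The pseudogene EIF5P1, named here as its copy and outside the naming rule, fell by 2.27 on the log2 scale, and since the 2 can share reads the split between them is uncertain.

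HSD3B1 and LRP8 also fell in the starved cells at 24 h and were not called in the other 2 comparisons. HSD3B1 encodes a 3-beta-hydroxysteroid dehydrogenase of steroid hormone synthesis (chromosome 1, 119507198 to 119515054). Its levels were 36.9, 37.2 and 43.7 CPM with vehicle and 10.3, 11.3 and 9.65 CPM with ISRIB, a change of -1.92 ± 0.11. In the 4 other groups used here the means lay between 41.9 and 43.9 CPM, and the difference between 24 h and 6 h was -1.94 ± 0.15 (edgeR adjusted p = 6.5e-08). LRP8 encodes an apolipoprotein E receptor of the LDL receptor family (chromosome 1, 53242364 to 53328070). It was at 128, 131 and 125 CPM with vehicle and 44.0, 46.3 and 43.8 CPM with ISRIB, a change of -1.51 ± 0.06 with the smallest adjusted p among the 24 largest changes (1.1e-12, edgeR). The ISRIB effect on LRP8 was -0.08 ± 0.06 with asparagine and -0.05 ± 0.06 at 6 h, neither called. After GC correction HSD3B1 was at -1.89 and LRP8 at -1.596. HSD3B1 has a close paralog, HSD3B2, with which reads may be shared.

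The other large falls included 2 aldo-keto reductases that act on aldehydes and steroids. AKR1B10 fell from 574, 652 and 625 CPM to 175, 170.1 and 182 CPM (-1.81 ± 0.09) and AKR1C1 from 485, 616 and 649.6 to 206, 212 and 217 CPM (-1.46 ± 0.11). Both have near-identical copies, AKR1B10P1 and AKR1C2, with which reads may be shared. CYP4F3, which hydroxylates leukotrienes and fatty acids, changed by -2.02, the neuronal microtubule protein gene MAP2 by -1.58, the HIF prolyl hydroxylase gene EGLN3 by -1.58 and the long non-coding RNA RP1-27K12.2 by -1.52. For SCD and C8orf4 the call rested on single libraries. SCD, the stearoyl-CoA desaturase, changed by -1.55 ± 0.49 (edgeR adjusted p = 0.027), and by -1.21 without vehicle replicate 3 (adjusted p = 0.129), -1.41 without ISRIB replicate 1 (adjusted p = 0.111) and -1.50 without ISRIB replicate 2 (adjusted p = 0.065). C8orf4 changed by -1.50 ± 0.39, and by -1.16 without vehicle replicate 1 (edgeR adjusted p = 0.0683) and -1.29 without ISRIB replicate 3 (adjusted p = 0.0528). The remaining member of these 12 falls, ASNS, is described below. By the difference between the media, the innate immune receptor gene TLR4 stood first, at 7.51, 7.24 and 6.29 CPM with vehicle and 1.88, 2.07 and 1.39 CPM with ISRIB (-1.97 ± 0.21), and by the difference between the times the glycan-trimming mannosidase gene MAN1A1 joined it (-1.71 ± 0.29).

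**Figure D2:**
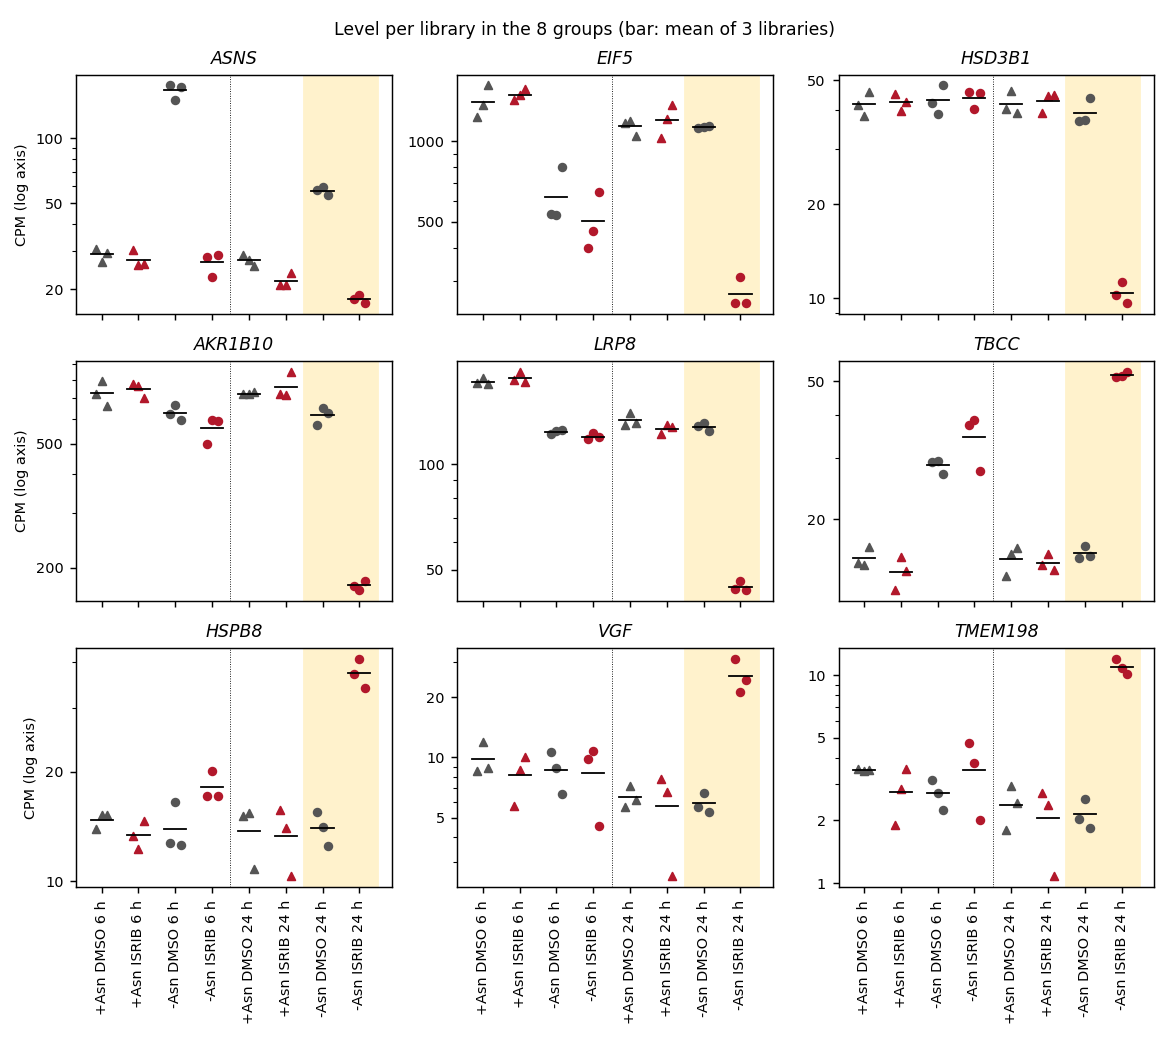
Level in CPM (log axis) of 9 genes in each of the 24 libraries by group, with vehicle in grey, ISRIB in red, triangles with asparagine and circles without; the bar is the mean of 3 libraries and the shaded band holds the 2 groups compared. For each gene except ASNS the starved ISRIB libraries at 24 h are the ones that stand apart from all others; for ASNS they are the lowest, and the starved vehicle libraries at 6 h the highest.

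The largest rises were of genes at low to moderate level. TMEM198, which encodes a membrane protein, was at 2.04, 2.54 and 1.84 CPM with vehicle and 12.02, 10.9 and 10.1 CPM with ISRIB, a log2 change of 2.36 ± 0.27 (edgeR adjusted p = 4.6e-06). VGF, which encodes a secreted neuropeptide precursor, rose from 5.67, 6.64 and 5.37 CPM to 31.1, 21.1 and 24.2 CPM (2.11 ± 0.31). TBCC, a cofactor that releases folded tubulin dimers (chromosome 6, 42744481 to 42746096, a single exon), stood out for its narrow spread. It was at 15.5, 16.8 and 15.7 CPM with vehicle and 51.3, 51.6 and 53.1 CPM with ISRIB, a change of 1.70 ± 0.11 (edgeR adjusted p = 3.1e-09). TBCC at 6 h without asparagine had means of 28.6 ± 1.38 CPM with vehicle and 34.5 ± 6.08 CPM with ISRIB (SD, n = 3), which were not called different. The small heat shock protein gene HSPB8 rose from 15.5, 14.1 and 12.5 to 37.0, 40.9 and 33.9 CPM (1.41 ± 0.15), and the lineage transcription factor gene GATA6 from 7.31, 7.06 and 6.68 to 17.2, 19.6 and 18.9 CPM (1.40 ± 0.13).

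RNF223 changed by 1.6, SCAND1 by 1.55, CTU1, which thiolates the wobble base of certain tRNAs, by 1.46, ZNF579 by 1.39 and the small GTPase gene RHOG by 1.36. The GC content of the main transcript of the 12 largest rises ran from 53.8% in HSPB8 to 73.7% in TMEM238, all above the median of 49.3%, and some of the changes shrank after GC correction. CTU1 was then at 0.95 and TMEM238 at 0.65 against 1.30 ± 0.44 before, each still called. For TMEM238 the call was lost without vehicle replicate 1 (1.28, edgeR adjusted p = 0.107), vehicle replicate 3 (1.01, adjusted p = 0.165), ISRIB replicate 1 (1.22, adjusted p = 0.107) or ISRIB replicate 3 (1.19, adjusted p = 0.112). For IER5L, at 1.32 ± 0.40, it was lost without the same 4 libraries (1.32, 1.28, 1.26 and 1.07, edgeR adjusted p = 0.0676, 0.0762, 0.0709 and 0.108). HSPB8, TBCC and TMEM198 kept 1.49, 1.62 and 1.95 after the correction.

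The integrated stress response genes did not move as one. ASNS fell from 57.4, 59.4 and 54.6 CPM with vehicle to 17.97, 18.8 and 17.2 CPM with ISRIB, a log2 change of -1.67 ± 0.10 (edgeR adjusted p = 5.7e-10; chromosome 7, 97852118 to 97872542). The 3 ISRIB libraries lay below all 6 libraries with asparagine at 24 h, which ran from 20.8 to 28.8 CPM. The drug effect on ASNS was larger at 6 h, when vehicle was at 175, 151 and 173 CPM and ISRIB at 28.2, 22.8 and 28.9 CPM, and the difference between the times was 0.98 ± 0.14. SLC7A11, the cystine importer, went from 456, 476 and 448 to 194, 250.2 and 203 CPM at 24 h (-1.09 ± 0.15), and the difference from 6 h was 0.07 ± 0.20 (edgeR adjusted p = 0.85, which does not show that the effects were equal). STC2, a secreted glycoprotein, fell by 0.82 ± 0.15 on the log2 scale.

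DDIT3, which encodes CHOP, was higher with ISRIB: 8.59, 9.32 and 9.26 CPM against 5.92, 6.32 and 5.61 CPM, a change of 0.60 ± 0.16 (edgeR adjusted p = 0.0095). At 6 h ISRIB had lowered DDIT3 by -1.37 ± 0.15, so its sign turned, and the difference between the times was 1.97 ± 0.22. PPP1R15A, the inducible subunit of an eIF2 phosphatase, was at 120.1, 147 and 80.3 CPM with ISRIB and 70.2, 63.4 and 53.6 CPM with vehicle (0.89 ± 0.24). Its call was lost without vehicle replicate 3 (0.79, edgeR adjusted p = 0.0575) or ISRIB replicate 2 (0.68, adjusted p = 0.0562), and the difference between the media, 0.97 ± 0.33, was not called. ATF4 mRNA changed by -0.34 ± 0.10 (edgeR adjusted p = 0.019), from 372, 374 and 365 to 305, 301 and 275 CPM. That call was lost without vehicle replicate 1 (-0.33, edgeR adjusted p = 0.0545) or ISRIB replicate 3 (-0.30, adjusted p = 0.082).

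For TRIB3, SESN2, ATF3, DDIT4 and CHAC1, all lowered by ISRIB at 6 h, no change was called at 24 h. TRIB3, a pseudokinase that restrains this response, was at 77.0, 94.4 and 78.1 CPM with vehicle and 108, 87.5 and 108 CPM with ISRIB (0.29 ± 0.13). CHAC1, which degrades glutathione, was near 1 CPM: 0.995, 1.34 and 0.726 CPM with vehicle and 0.639, 0.345 and 0.669 CPM with ISRIB. CHAC1 at 6 h of starvation was at 20.6, 32 and 15.3 CPM with vehicle. DDIT4, an inhibitor of mTORC1, was at -0.66 ± 0.27 (edgeR adjusted p = 0.089), and at -1.002 after GC correction, where it was called. The time differences were 4.39 ± 0.79 for CHAC1, 3.13 ± 0.40 for DDIT4, 2.56 ± 0.18 for TRIB3, 2.52 ± 0.30 for SESN2 and 1.51 ± 0.34 for ATF3. VLDLR, the very low density lipoprotein receptor, went from 2.14, 2.17 and 2.03 to 1.24, 1.68 and 1.28 CPM (-0.60 ± 0.21, edgeR adjusted p = 0.048). Its call was lost with DESeq2 (-0.60, adjusted p = 0.0721), with no filter (-0.59) and when vehicle replicate 1, 2 or 3 or ISRIB replicate 1 or 3 was left out (-0.59, -0.58, -0.63, -0.51 and -0.55). The difference between the times was 2.83 ± 0.31.

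**Figure D3:**
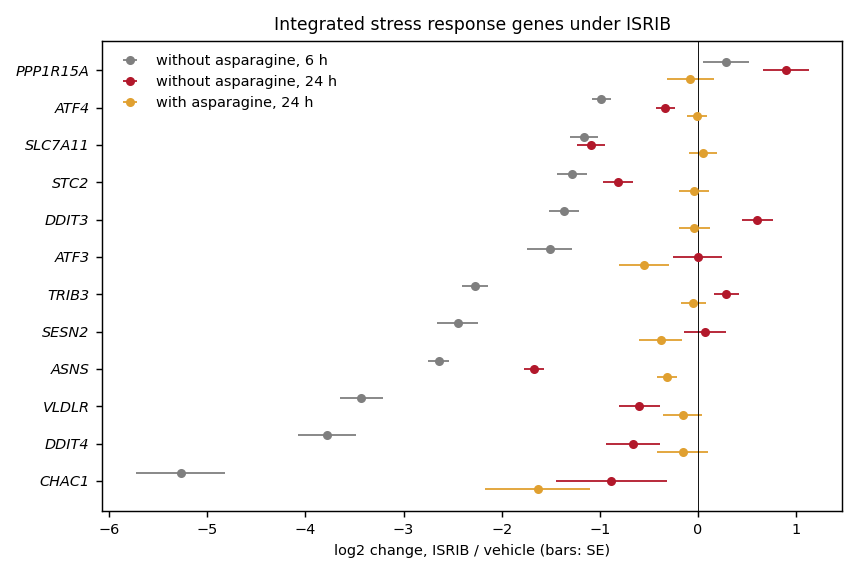
Log2 change between ISRIB and vehicle, with its SE, of the 12 stress response genes followed, without asparagine at 6 h (grey) and 24 h (red) and with asparagine at 24 h (orange). At 24 h only ASNS, SLC7A11, STC2, VLDLR and ATF4 were called lower and DDIT3 and PPP1R15A higher, while at 6 h all but PPP1R15A were called lower, ATF4 least at -0.99.

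Of 34 tested targets of ATF4 and CHOP 11 fell and 4 rose at 24 h, with a median of -0.41, beside 11.6% fallen and 10.1% risen of all genes. At 6 h 27 fell and 0 rose, with a median of -1.37, beside 1.64% and 0.551% of all genes. The difference between the times was higher for 20 and lower for 0, beside 3.35% and 4.24% of all genes. Those that fell include PSAT1, a serine synthesis enzyme, at -0.87 ± 0.14 and the tRNA export receptor gene XPOT at -0.89 ± 0.12. Those that rose were DDIT3, PPP1R15A, TXNIP and SLC3A2. TXNIP, which limits glucose uptake and thioredoxin, went from 149.7, 147 and 183 to 271, 309 and 299 CPM. SLC3A2, the heavy chain shared by several amino acid exchangers including that of SLC7A11, went from 228, 259 and 214 to 392, 351 and 339 CPM (0.63 ± 0.13), against the direction of its partner. After GC correction 16 fell and 5 rose, beside 2666 and 2625 of all 17409 genes. Among 26 enzymes of amino acid synthesis and one-carbon metabolism 12 fell and 1 rose at 24 h, or 4 rose without vehicle replicate 2, beside the same 11.6% and 10.1%. Those that fell include GLUL, glutamine synthetase, from 56.8, 62.0 and 63.8 to 38.8, 36.4 and 39.1 CPM (-0.68 ± 0.08).

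Of 20 tested amino acid transporters 4 fell, SLC7A11 among them, and 2 rose, beside 11.6% fallen and 10.1% risen of all genes. Whichever single library of the 6 was left out, 1 rose. The glutamate and aspartate transporters SLC1A3 and SLC1A1 changed by -1.25 ± 0.12 and -1.29 ± 0.17, and the cationic amino acid transporter SLC7A2 by -1.32 ± 0.22. SLC1A3 was at 25.6, 23.0 and 22.9 CPM with vehicle and 9.98, 9.71 and 10.3 CPM with ISRIB, without overlap. Upstream of eIF2, the transcripts of 2 eIF2 kinases fell: EIF2AK1, the heme-regulated kinase, from 189.6, 204 and 203 to 122, 128 and 133 CPM (-0.64 ± 0.06), and EIF2AK4, which encodes GCN2, by 0.42 on the log2 scale. IMPACT, a GCN2 inhibitor, changed by -0.65 ± 0.11. Of 14 genes for eIF2, eIF2B and start codon factors 2 rose and 2 fell, beside 10.1% and 11.6% of all genes, and 1 rose without vehicle replicate 1 or 2 or any 1 of the ISRIB libraries. EIF2B4, a subunit of eIF2B, which ISRIB binds, changed by 0.55 ± 0.11, and EIF5, described above, belongs to the same list.

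Of 26 NRF2 targets, antioxidant and detoxification genes, 18 fell, 0 rose and 8 were not called, against 11.6% of all genes fallen and 10.1% risen, with a median of -0.51 against 0.00 over all genes tested. With 1 library left out 15 to 18 fell, beside 1179 to 2047 of all genes, and after GC correction 20, beside 2666. At 6 h 3 fell and 0 rose, with a median of -0.19, beside 1.64% and 0.551% of all genes. GCLM, the regulatory subunit of glutathione synthesis, went from 540.5, 545 and 567 to 245, 294 and 272 CPM (-1.03 ± 0.16). AKR1C2 changed by -0.99 ± 0.09, the multidrug exporter ABCC2 by -0.78 ± 0.09 and malic enzyme ME1, a source of NADPH, by -0.89 ± 0.14. The list shares SLC7A11 with the ATF4 targets, and holds AKR1B10 and AKR1C1 to AKR1C3, whose near-identical sequences can share reads. Of 18 glutathione genes 8 fell, GCLM and SLC7A11 again among them, and 2 rose (0 without vehicle replicate 1 or ISRIB replicate 1), with the selenoenzyme gene GPX2 at -1.02 ± 0.13 and glutathione reductase GSR at -0.41 ± 0.06.

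Lipid and sugar genes leaned the same way. Counts from all libraries before GC correction are to be read beside the 11.6% fallen and 10.1% risen of all genes tested. Of 26 genes of sterol synthesis and uptake 12 fell and 4 rose, with a median of -0.38. SQLE, squalene epoxidase, went from 62.5, 60.2 and 65.5 to 33.1, 38.1 and 33.9 CPM (-0.84 ± 0.11), and HMGCS1, HMG-CoA synthase, changed by -0.95 ± 0.15. Without vehicle replicate 3, 6 fell and 1 rose, and without the others 9 to 12 fell and 1 to 3 rose. At 6 h 1 fell and 0 rose, beside 1.64% and 0.551% of all genes. Of 18 fatty acid and lipid synthesis genes 6 fell and 0 rose, ACSL1, which activates long-chain fatty acids, changing by -0.53 ± 0.10. Without vehicle replicate 3 or ISRIB replicate 1, 4 of them fell. Of 26 glycolysis and hypoxia genes 10 fell and 0 rose, but 5 fell without vehicle replicate 3, 6 without ISRIB replicate 3 and 15 after GC correction. Of all genes 1265, 1311 and 2666 fell in these settings. The glucose transporter gene SLC2A3 went from 47.0, 46.5 and 39.8 to 21.04, 22.9 and 17.5 CPM (-1.12 ± 0.15). PDK1, a kinase that inhibits pyruvate dehydrogenase, went from 16.9, 16.8 and 16.4 to 7.91, 9.32 and 7.75 CPM, and hexokinase HK2 changed by -0.75 ± 0.12.

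Some lists had more rises than falls. Their counts from all libraries before GC correction are to be read beside the 10.1% risen and 11.6% fallen of all genes tested. Of 11 tested histone genes 5 were higher and 0 lower, with a median of 0.81 before and after GC correction. Without vehicle replicate 3 or ISRIB replicate 3, 3 rose. H1F0, a linker histone made outside S phase, went from 209, 219 and 211 to 383, 367 and 389 CPM (0.83 ± 0.09, edgeR adjusted p = 9.3e-07), above every other library of the series, and the H2B gene HIST1H2BK changed by 1.13 ± 0.19. Of 18 AP-1 and other immediate early genes 4 rose and 0 fell, with a median of 0.38, which was 0.11 after GC correction with 5 called. JUN went from 63.5, 66.0 and 50.5 to 130.1, 156 and 111 CPM (1.14 ± 0.20), and IER2 and FOSL2 changed by 1.17 ± 0.22 and 0.75 ± 0.12. The KLF transcription factors rose for 3 of 12 and fell for 0, with KLF10 at 59.8, 58.3 and 63.0 CPM with vehicle and 110.4, 135 and 113 with ISRIB (0.99 ± 0.10) and KLF4 at 1.08 ± 0.16. Of 14 FOXO and MondoA nutrient response genes 4 rose and 0 fell. Among these were the insulin receptor adaptor IRS2 (0.78 ± 0.14), FOXO3 (0.48 ± 0.10) and TXNIP, which was counted also with the ATF4 and CHOP targets.

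**Figure D4:**
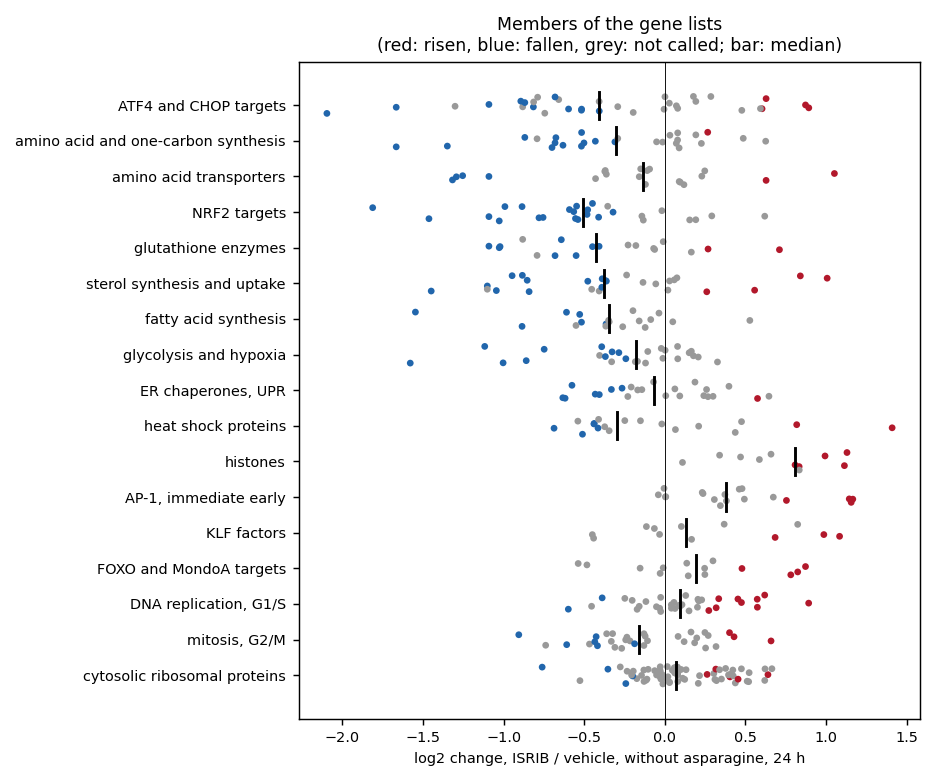
Log2 change between ISRIB and vehicle without asparagine at 24 h for the tested members of 17 gene lists, 1 point a gene, with risen genes in red, fallen in blue and uncalled in grey; the black bar is the median. The NRF2 list has 18 blue and 0 red points, and the histone list 5 red and 0 blue.

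Other lists were mixed, and their counts from all libraries stand beside the 10.1% risen and 11.6% fallen of all genes tested. Of 34 DNA replication and G1/S genes 9 rose and 2 fell, with the replicative helicase genes MCM7 and MCM2 at 0.57 ± 0.12 and 0.62 ± 0.14, and of 32 mitosis genes 3 rose and 6 fell. Without vehicle replicate 3, 5 of the replication genes rose, and 2 or 3 of the mitosis genes fell without replicate 1 or 3 of either group. Endoplasmic reticulum chaperones and unfolded protein response genes fell for 7 of 23 and rose for 1, ATF6, a sensor of unfolded proteins, changing by -0.62 ± 0.12 and the co-chaperone gene DNAJB9 by 0.58 ± 0.13. Of these, 2 fell without vehicle replicate 1 or ISRIB replicate 1. Of 18 heat shock genes 5 fell, HSPA4 by 0.69 on the log2 scale, and 2 rose, HSPB8 among them, but 2 fell without vehicle replicate 3 or ISRIB replicate 1 and 3 without vehicle replicate 1. Of 70 cytosolic ribosomal protein genes 5 rose and 4 fell, with a median of 0.07, and only 0 to 2 rose without replicate 1 or 3 of either group. Among 25 interferon-stimulated genes 6 fell and 1 rose, and 4 of the 13 mitochondrially encoded mRNAs fell and 0 rose, of which 0 fell without vehicle replicate 1 1 without ISRIB replicate 1 and 2 without ISRIB replicate 3.

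Risen and fallen genes differed in the make-up of their transcripts, described here for 12353 genes with a coding sequence in GENCODE 29. The median GC content was 56.1% in 1463 risen and 44.6% in 1711 fallen genes, against 49.3% in all. Over these 12353 genes, which are not independent, the rank correlation of the log2 change with transcript GC content was 0.476. For the ISRIB effect with asparagine at 24 h it was -0.557, and without asparagine at 6 h -0.241. The part of these opposite trends in the differences between media and times was not tested. The 3′ untranslated region had a median of 655 bases in the risen and 1564 in the fallen, against 995, and the number of exons a median of 7 and 12, against 9. Genes with 1 exon made up 3.96% of the risen, 0.701% of the fallen and 1.98% of all. Of the 12 largest rises above, IER5L and TBCC have 1 exon. The separate parts of these properties in the result, and that of the libraries' GC slopes, were not tested.

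The coding sequence of the fallen genes also held more asparagine codons: asparagine was a median of 4.07% of the encoded residues in the fallen, 2.62% in the risen and 3.42% in all genes. Single genes did not all follow these medians. EIF5 and HSD3B1 stood at 5.34% and 5.09%, but CYP4F3 and MAP2, also among the largest falls, at 1.54% and 1.59%. Among the largest rises TMEM198 stood at 0.278%, but TBCC and RHOG at 3.76% and 3.66%. Across the 12353 genes, which are not independent and share libraries and base composition, the rank correlation of the log2 change with the share of an amino acid was the most negative of 20 for asparagine (-0.369). Given GC content it was -0.159, with isoleucine next at -0.102, and given GC content, lengths and exon number -0.131. In the comparison with asparagine at 24 h, in which 0 genes were called, the asparagine value given GC content was 0.019 but glutamate reached 0.228 and lysine 0.196, so values of this size also occurred there. When genes were split by GC content into terciles, and each of these by asparagine share, the median change was lower at each step from low to high asparagine: -0.11, -0.21 and -0.25 at low GC, 0.06, -0.04 and -0.09 at middle GC and 0.37, 0.26 and 0.16 at high GC. The median GC content also fell from low to high asparagine, from 41.4% to 40%, from 50.1% to 48.3% and from 62.2% to 58.4%. The split therefore does not hold GC content fixed. With asparagine in the medium the median changes were 0.08 to 0.09, 0.00 to 0.02 and -0.11 to -0.08.

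Library by library, the same contrast can be read without pairing ISRIB with vehicle. Each gene's log2 level (CPM with 1 added) was taken as a deviation from its mean over the 12 libraries at 24 h. Low values in some libraries therefore raise those of the others. The high minus the low tercile of asparagine share, averaged over the GC terciles, was -0.123, -0.077 and -0.102 on the log2 scale in the starved ISRIB libraries (replicates 1, 2 and 3) and 0.052, 0.010 and 0.056 in the starved vehicle libraries. The 6 libraries with asparagine ran from -0.002 to 0.109. The high minus the low tercile of GC content in the starved ISRIB libraries was 0.399, -0.052 and 0.298. The part of coding sequence in the result was not tested.

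**Figure D5:**
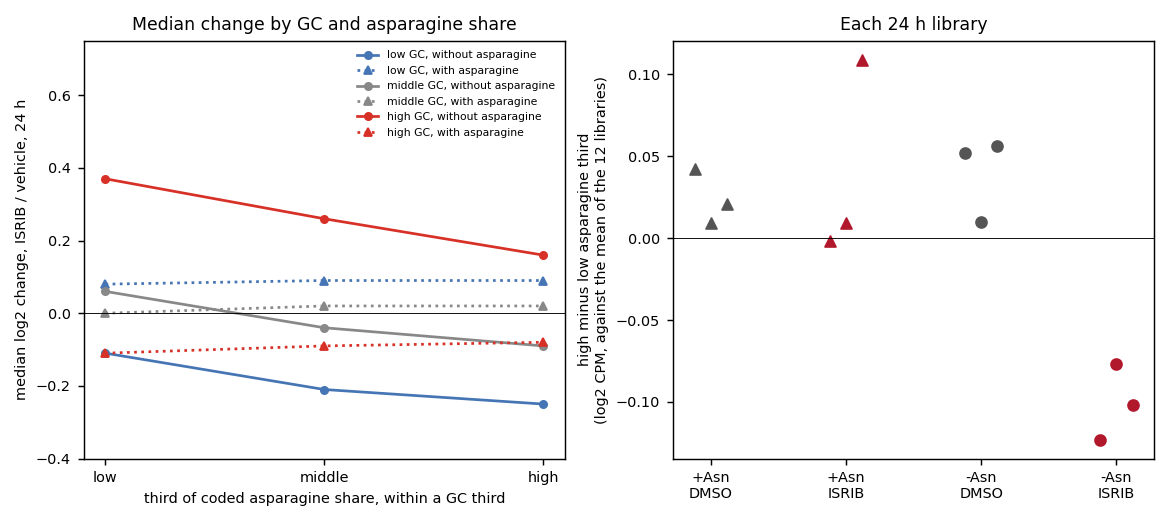
Left, median log2 change between ISRIB and vehicle at 24 h by tercile of encoded asparagine share (horizontal axis) within terciles of GC content (colours), without asparagine (solid, circles) and with it (dotted, triangles). Right, high minus low asparagine tercile in each of the 12 libraries at 24 h, from deviations of each gene from its mean over these 12. The 3 starved ISRIB libraries lie at -0.077 and below, and the other 9 at -0.002 and above.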

How the data were processed

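RNA of 24 PC9 libraries was sequenced. Per the submitters' processing notes the authors used Bowtie2, featureCounts, DESeq2 and hg38, with versions and strandedness not given in the sources used here. Reads per gene come from the deposited count table (37411 genes). The second deposited table holds log2 values, from which an alternative was computed. Groups were taken from the labels.

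Counts were scaled with TMM and filtered with filterByExpr (edgeR 4.0.16, R 4.3.3). All 24 libraries entered a model with 1 mean for each of 8 groups (17409 genes, 16 residual degrees of freedom, common dispersion 0.0176), tested with the quasi-likelihood F test and adjusted after Benjamini and Hochberg. The threshold was 0.05. Errors of log2 changes are SE. Levels are CPM, scaled by TMM except for the cell type markers, and not corrected for length. P-values measure the spread between these libraries. Where genes overlap or lie antisense to others, reads could not be told apart.

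Genes named were the 12 largest rises and falls past the threshold with at least 5 CPM and no overlap of groups, 5 each way for the differences between media and times, up to 5 called members a list, and 12 stress response genes. The members and the 45 lists were chosen with earlier results of these data known. Annotation was GENCODE release 29, to which 36620 identifiers matched. GC correction removed a spline with 5 degrees of freedom in each library (GC content known for 17326 genes, 99.5%). Alternatives also used DESeq2 1.42.0, limma 3.58.1 on the log2 values, scaling by RLE or upper quartile, other filters, the groups compared alone, the replicate block, and each library left out. Leaving out the 3 libraries of most negative GC slope was added after seeing the data. Scripts were tested on simulated data.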

Additional observations from a re-analysis of the deposited data

Results flagged for a closer look

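The ISRIB effect at 24 h differed between the media, by a test of the difference itself, for 604 genes that were higher without asparagine and 973 that were lower. Among the named genes the difference on the log2 scale was below 0 for TLR4 (-2.16), EIF5 (-2.14), CYP4F3 (-1.97), HSD3B1 (-1.95), AKR1B10 (-1.89), RP1-27K12.2 (-1.75), EGLN3 (-1.74), MAP2 (-1.71), MAN1A1 (-1.64), AKR1C1 (-1.44), LRP8 (-1.43), ASNS (-1.35), SLC7A11 (-1.14) and STC2 (-0.77). It was above 0 for HSPB8 (1.45), ZNF579 (1.45), GATA6 (1.51), RHOG (1.53), CTU1 (1.57), RNF223 (1.6), TBCC (1.74), SCAND1 (1.74), VGF (2.24) and TMEM198 (2.54).

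Without asparagine the ISRIB effect differed between 24 h and 6 h, by the same kind of test, for 584 genes that were higher at 24 h and 738 that were lower. Named genes with a lower effect at 24 h were HSD3B1 (-1.94), EIF5 (-1.76), TLR4 (-1.73), MAN1A1 (-1.69), AKR1B10 (-1.65), LRP8 (-1.47), RP1-27K12.2 (-1.46), MAP2 (-1.43), CYP4F3 (-1.42), EGLN3 (-1.33) and AKR1C1 (-1.01). Those with a higher effect at 24 h were ATF4 (0.65), ASNS (0.98), HSPB8 (1.03), GATA6 (1.09), RNF223 (1.11), RHOG (1.19), TBCC (1.43), ATF3 (1.51), SCAND1 (1.75), TMEM198 (1.97), DDIT3 (1.97), VGF (2.16), TSC22D3 (2.37), SESN2 (2.52), TRIB3 (2.56), VLDLR (2.83), DDIT4 (3.13) and CHAC1 (4.39). For ATF4, ASNS, DDIT4, VLDLR and CHAC1 the change was negative at both times and less so at 24 h, and for DDIT3 a change of sign. TSC22D3, a glucocorticoid-induced leucine zipper gene, was at 3.58, 4.98 and 5.95 CPM with vehicle and 6.15, 5.52 and 8.64 CPM with ISRIB at 24 h, which overlapped.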

How the results depend on the processing

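With any alternative setting 0 of the genes reported as changed were called in the other direction, but the counts moved. Risen genes numbered 2898 with GC correction and replicate block together, and 3194 when the 3 libraries with the steepest negative GC slope were dropped, where 3262 fell. The replicate block alone gave 2069 risen and 2297 fallen genes. What a shared replicate number stands for is not stated. Same-numbered deviations correlated at -0.127, -0.267 and 0.021 in the 24 h groups without asparagine and at -0.426, 0.294 and -0.161 in those with it, but at 0.327, 0.363 and 0.470 in the 6 h groups. With the block, added there after seeing the data, 140 genes rose and 346 fell at 6 h, and the difference between times was higher for 818 and lower for 961, all within 1.5 times of the reported counts. For the difference between media, genes higher without asparagine numbered 963 with DESeq2, 1204 with no filter, 933 with the replicate block, 1373 with GC correction and 1695 with both, and genes lower 1608 and 1901 with the last 2. For the difference between times, genes higher at 24 h numbered 1203 with no filter, 1362 with GC correction and 1659 with the block added, and genes lower 1499 and 1765 with the last 2. The cause was not tested. With 1 library left out, risen genes ran from 894 to 1694 and fallen from 1179 to 2047, the difference between media from 283 to 948 higher and from 523 to 1287 lower, and that between times from 295 to 693 and from 373 to 993.

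Values near 0 changed sign. SESN2 was at -0.15 with GC correction and -0.14 with the block added, and from -0.0214 to 0.181 with 1 library left out. ATF3 was at 0.00565 with upper-quartile scaling, 0.00667 with no filter, 0.0072 with the 5 CPM filter, and from -0.23 to 0.19 with 1 library left out. Of 204 named genes that were called, 203 kept the call with DESeq2, 203 with limma, 191 with GC correction, 180 with no filter and 151 to 193 with 1 library left out.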

Other observations

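Some lists outside the account above were mixed at 24 h without asparagine. Counts from all libraries are to be read beside the 10.1% risen and 11.6% fallen of all genes tested, and those with a library left out beside the totals given above for that setting. Of 16 mitochondrial aminoacyl-tRNA synthetases 5 rose and 2 fell, with 3 risen without vehicle replicate 1 or ISRIB replicate 1. Of 18 cytosolic ones 1 rose and 4 fell, with 1 fallen without vehicle replicate 3, 2 without ISRIB replicate 1, and 0 risen without replicate 1 or 3 of either group. The difference between these lists was not tested. Of 32 proteasome genes 7 rose and 3 fell, with 4 risen without vehicle replicate 1 or ISRIB replicate 1 or 3, and 1 fallen without vehicle replicate 3. Of 30 ribosome biogenesis factors 7 rose and 7 fell, with 2 to 4 risen and 3 to 5 fallen without any 1 of the libraries other than ISRIB replicate 2. Of 30 autophagy and lysosome genes 3 rose and 6 fell, with 1 risen and 3 fallen without ISRIB replicate 3, and 3 or 4 fallen without any 1 of the libraries other than ISRIB replicate 2. Feedback regulators and outputs of ERK signalling, which lies downstream of EGFR, fell for 4 of 17 and rose for 0, with 1 fallen without vehicle replicate 2 or ISRIB replicate 1 or 3, and 2 without vehicle replicate 1.

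The E-box letters CACGTG stood in 10.5% of the promoters of risen genes, 11% of those of fallen genes and 9.87% of all promoters of tested genes, and the AP-1 letters TGACTCA or TGAGTCA in 3.66%, 2.93% and 3.23%, in the same windows and on both strands.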
